A study of Homo sapiens with 4 samples.

Results

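The cluster of KRAB zinc finger protein (KZFP) genes at 4p16.3 lies close to the end of the short arm of chromosome 4. Its members here were all CpGs at positions 50000 to 500000 of chromosome 4 in the hg19 build (GRCh37), taken by position: 5086 of the 27710999 CpGs with reads on the autosomes and X, or 11.3 per kb over 450 kb. The assay for cytosine methylation in the CpG context (mCG) was EM-seq, an enzymatic form of methylation sequencing that deaminates unmodified cytosines, so that these are read as T while methylated and hydroxymethylated cytosines are both read as C. The 4 libraries came from HEK293T, a line of human embryonic kidney origin: WT 1 and WT 2 without the deletion, and ZNF274KO 1 and ZNF274KO 2, cells in which CRISPR-Cas9 with 2 guides flanking the gene removed ZNF274. Knockout cells were single-cell sorted, so each line is a clone; the labels do not say whether the 2 ZNF274KO libraries share a clone or whether any libraries came from separate cultures, and p-values therefore measure the spread between these libraries, which may be technical. Nothing but the genotype distinguished the groups in the labels.

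The deletion was seen in the reads themselves. Over the 501 CpGs of the ZNF274 body, WT 1 had 5158 reads and WT 2 had 4274. ZNF274KO 1 had 0 reads (exact 95% Poisson upper limit 3.69) and ZNF274KO 2 had 14. Across the autosomes and X the libraries held 241598512 to 295114493 reads on CpGs, with genome-wide mCG levels of 58.4% to 60.4%, the lowest in ZNF274KO 2 and the highest in WT 2. Within the 4p16.3 cluster the median CpG had 8 to 10 reads, and the depth relative to the autosomes was 1.0 to 1.1 in the 4 libraries. A single CpG was therefore measured coarsely, and levels were computed from reads summed over many CpGs.

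KZFPs are the largest family of transcription factors in human cells. Their arrays of C2H2 zinc fingers bind DNA, often within transposable elements, and their KRAB domain recruits the corepressor TRIM28 (KAP1) and through it the histone methyltransferase SETDB1, which deposits H3K9me3. The genes arose by repeated local duplication, so they lie in clusters of similar copies, and ZNF274, itself a KZFP, is known to bind the 3′ exons that encode the fingers of other members. DNA methylation is usually dense over transcribed gene bodies and sparse at active promoters within CpG islands. At 4p16.3 the annotation places, from the telomere inwards, the KZFP genes ZNF595 (chr4:53180-88096), ZNF718 (chr4:124383-196092), ZNF732 (chr4:264464-299263), ZNF141 (chr4:331603-378657) and ZNF721 (chr4:419604-492945). Between ZNF718 and ZNF732 lies ZNF876P (chr4:212439-248630), a zinc finger pseudogene, and overlapping ZNF721 from its 3′ end lies ABCA11P (chr4:419224-467918), a pseudogene of an ABC transporter. At the inner edge starts PIGG, which encodes an enzyme of glycosylphosphatidylinositol anchor synthesis. ZNF732, ABCA11P and ZNF721 run towards the telomere and the others away from it.

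The letters below show sequence that was measured, from GRCh37, 5′ to 3′ on the strand of the gene named, with each CpG in capitals. The first stretch, at chr4:86572-86871, is coding sequence for the fingers of ZNF595.
ZNF595 finger exon: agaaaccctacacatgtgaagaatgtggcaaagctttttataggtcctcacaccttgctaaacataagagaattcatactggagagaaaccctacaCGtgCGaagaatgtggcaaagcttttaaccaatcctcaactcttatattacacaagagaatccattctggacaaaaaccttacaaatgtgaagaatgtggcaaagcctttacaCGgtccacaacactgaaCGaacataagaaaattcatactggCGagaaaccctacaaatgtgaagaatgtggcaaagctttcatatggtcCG
Its 6 CpGs were at 0% (73 reads, which allows a level of up to 4.11%) and 3.70% (27 reads) in WT 1 and WT 2, and at 60.9% (46 reads) and 44.6% (65 reads) in ZNF274KO 1 and ZNF274KO 2. The stretch was almost free of methylation in WT, and the level was higher in ZNF274KO 1 than in ZNF274KO 2.

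The other 3 stretches are the 250 bases before gene starts, at chr4:299264-299513 for ZNF732, chr4:331353-331602 for ZNF141 and chr4:467957-468206 for ABCA11P, the last taken before the farthest start annotated there. They are shown because they are similar in sequence and yet differed in methylation.
ZNF732: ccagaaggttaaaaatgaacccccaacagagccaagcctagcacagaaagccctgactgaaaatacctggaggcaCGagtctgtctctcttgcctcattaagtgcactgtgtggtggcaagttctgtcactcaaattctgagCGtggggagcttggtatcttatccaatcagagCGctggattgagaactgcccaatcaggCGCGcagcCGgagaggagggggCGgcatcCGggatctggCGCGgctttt
ZNF141: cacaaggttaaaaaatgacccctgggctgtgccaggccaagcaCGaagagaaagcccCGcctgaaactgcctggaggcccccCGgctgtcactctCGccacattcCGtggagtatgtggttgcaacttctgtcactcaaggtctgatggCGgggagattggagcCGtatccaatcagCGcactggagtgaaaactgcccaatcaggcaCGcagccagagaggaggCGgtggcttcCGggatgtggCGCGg
ABCA11P: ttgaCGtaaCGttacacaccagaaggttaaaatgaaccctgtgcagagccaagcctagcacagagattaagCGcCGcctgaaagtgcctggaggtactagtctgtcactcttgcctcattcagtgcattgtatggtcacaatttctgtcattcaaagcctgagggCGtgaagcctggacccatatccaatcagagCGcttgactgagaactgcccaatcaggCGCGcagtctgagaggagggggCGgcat
Between pairs of these stretches 78.8% to 85.1% of the aligned bases were identical, and the closest pair was ZNF732 and ABCA11P, with 194 identical of 228 aligned bases. Before ZNF732 the mCG level was 38.2% and 44.6% in the WT libraries and 79.0% and 83.9% in the ZNF274KO libraries. Before ABCA11P no read carried C in WT 1 (94 reads, which allows up to 3.19%), ZNF274KO 1 (91 reads, up to 3.30%) and ZNF274KO 2 (111 reads, up to 2.70%), and WT 2 was at 1.56% (64 reads). The pair most alike in letters thus lay far apart in methylation in all 4 libraries. The stretch before ZNF141 was at 52.9% and 54.1% in WT and at 89.4% and 81.7% in ZNF274KO. These are descriptions of chosen stretches, with no test.

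Methylation of the whole cluster was higher in ZNF274KO cells. Over its CpGs, WT 1 had an mCG level of 34.1% and WT 2 one of 35.1%, while ZNF274KO 1 reached 61.6% and ZNF274KO 2 52.1%, a mean of 34.6% ± 0.690 (SD, n = 2) against 56.8% ± 6.71 (SD, n = 2) and a rise of 22.2 points. The groups did not overlap (the share of bins without overlap is not given here), and the ZNF274KO libraries differed from each other more than the WT libraries did. In the quasi-likelihood test of edgeR over all 6371 bins of 450 kb into which the genome was divided, the bin that coincides with the cluster was called higher in ZNF274KO (Benjamini-Hochberg adjusted p = 1.66e-07), as were 1.05% of all bins, and its rise ranked 15 of 6371.

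The profile along the cluster was divided. Of the 225 tiles of 2 kb with at least 20 reads and 5 covered CpGs in every library, 146 (64.9%) were called higher in ZNF274KO at an adjusted p under 0.05 and 2 were called lower, against 0.432% higher and 0.0195% lower among all 1357123 tiles of the genome. All 146 lay among the 184 tiles that end before ABCA11P and ZNF721. Both ZNF274KO libraries were above both WT libraries in 186 tiles and below both in 20, where the genome-wide shares were 14.6% and 20.3%. The median difference was 30.2 points, with quartiles of 9.09 and 45.6, against -0.48 over all tiles of the genome. ZNF274KO 1 was above ZNF274KO 2 in 192 of the 225 tiles and in 140 of the 146 called higher, compared with 833569 of 1357123 over the genome. The called tiles formed 16 runs, of which the longest held 61 tiles in a row at chr4:266001-388000 and covered the entire ZNF141 gene and all of ZNF732 but the tile at its 3′ end. With limma on log2 ratios of methylated to unmethylated reads, 46 tiles were called higher, all among the 146, and 0 lower.

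**Figure D1:**
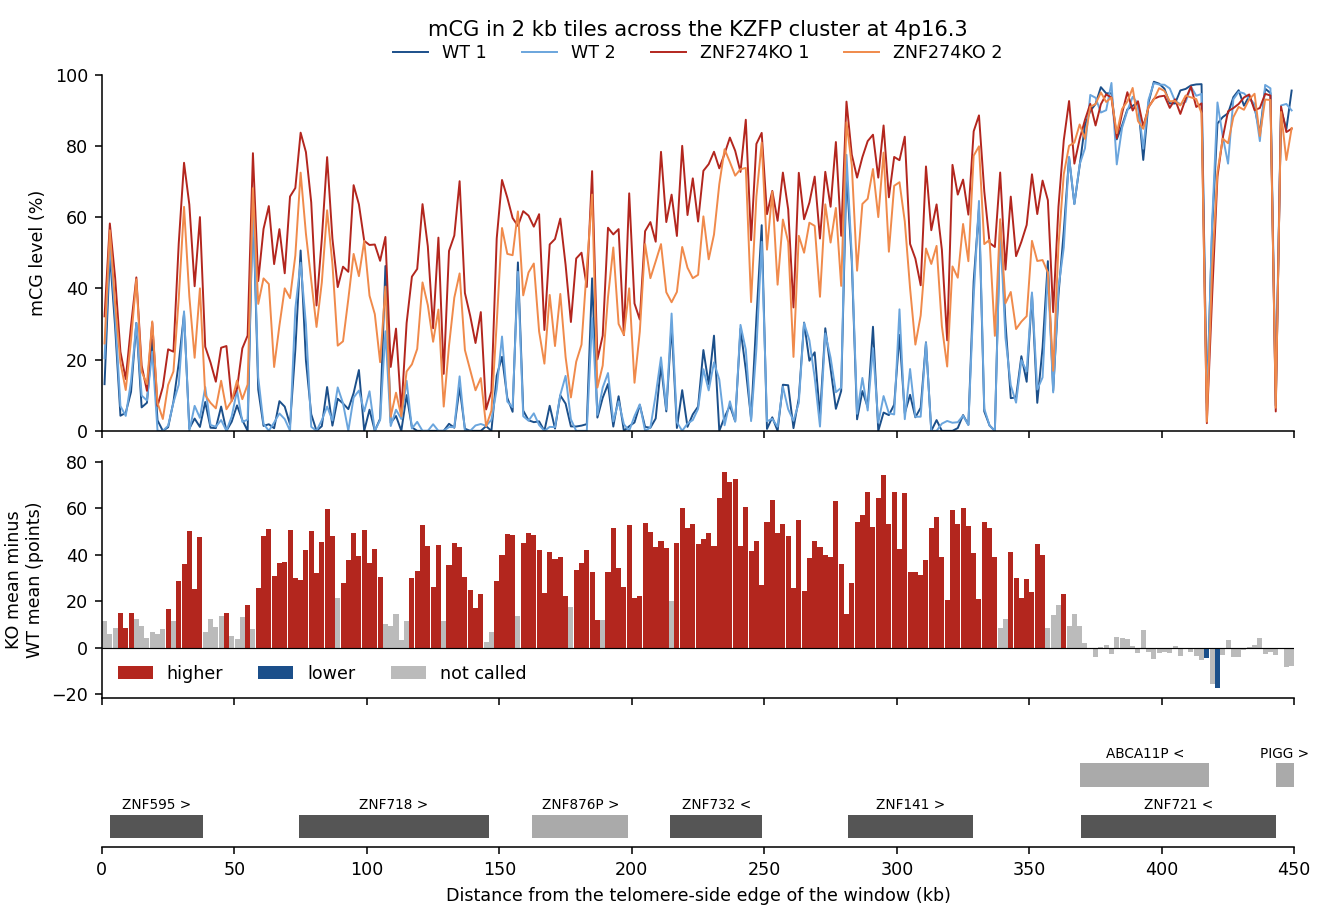
The mCG level (%) of each 2 kb tile in WT 1, WT 2, ZNF274KO 1 and ZNF274KO 2 (top), the difference between the ZNF274KO and WT means in percentage points, coloured by the edgeR call (middle), and the gene spans with their direction (bottom; KZFP genes dark, other genes and pseudogenes light), against distance in kb from the edge of the window nearest the telomere. Both ZNF274KO lines lie above both WT lines in 180 of the 184 tiles that end before ZNF721, and in 6 of the 38 that overlap it, where they lie below in 18, and 146 of 225 tiles are called higher.

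Divided at the telomere-side end of ABCA11P and ZNF721, a point chosen after the values were seen, the cluster had 3936 CpGs on the telomere side and 1150 beyond. On the telomere side WT 1 was at 23.3%, WT 2 at 23.6%, ZNF274KO 1 at 58.1% and ZNF274KO 2 at 46.5%, a rise of 28.8 points. Beyond that point it was 77.1%, 78.5%, 74.3% and 72.8% in the same order, with a difference of -4.22 points. Of the 38 tiles that overlap ZNF721, on the inner side, both ZNF274KO libraries were above both WT libraries in 6 and below both in 18. Of the 149 tiles whose WT mean was under 20%, 123 were called higher, of the 41 between 20% and 80%, 23, and of the 35 above 80%, 0; the part of the starting level in the size of the rise was not tested.

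**Figure D2:**
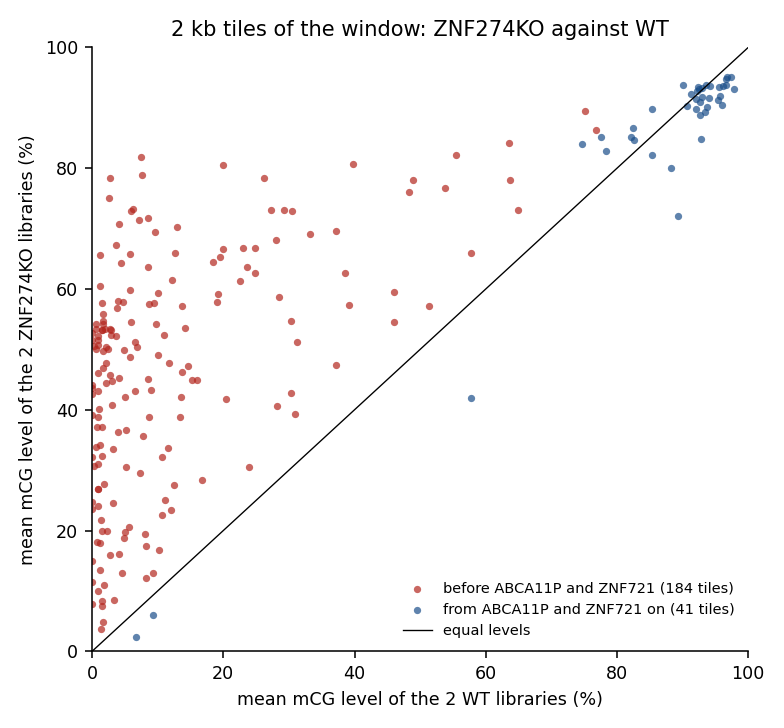
Each point is a 2 kb tile, with its mean mCG level (%) over the 2 WT libraries on the x axis and over the 2 ZNF274KO libraries on the y axis; the line marks equal levels. The 184 tiles before ABCA11P and ZNF721 all lie above the line, most of them from WT levels under 20%. The 41 tiles from there on differ from it by -17.2 to 9.33 points.

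The largest rises lay inside ZNF732 and ZNF141. Among tiles with at least 10 CpGs, that at chr4:344001-346000, in ZNF141, went from 5.14% and 9.77% in the WT libraries to 85.7% and 78.1% in the ZNF274KO libraries, a rise of 74.5 points (edgeR adjusted p = 7.4e-10). Its 34 CpGs had 256 to 370 reads a library, but only 50% of them lay in a stretch that occurs once in the genome. Of the 17 CpGs of the ZNF732 tile at chr4:288001-290000 94.1% lay in single-copy sequence. That tile was at 2.70% and 2.56% in WT and at 78.6% and 71.6% in ZNF274KO (rise of 72.5 points, edgeR adjusted p = 1.4e-09). The next tile towards the telomere, chr4:286001-288000, rose by 71.2 points, and the ZNF141 tiles at chr4:338001-340000 and chr4:348001-350000 rose by 67.0 and 66.9 points.

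Over gene bodies, from transcription start to end, 5 of the 8 genes and pseudogenes were called higher in ZNF274KO by edgeR and 0 lower. Of all 19830 gene bodies 0.893% were called higher. Among the 5 called were 4 of the 5 KZFP genes. In the same test 6 of the 8 had an unadjusted p under 0.05, with ZNF721, which was lower, among them. The share of all gene bodies under that limit is not given here. With limma, 2 were called higher, ZNF732 and ZNF141. The median difference over the 8 was 21.3 points, against -0.93 over all gene bodies. ZNF141, a KZFP gene, went from 14.6% in WT 1 and 16.9% in WT 2 to 70.3% in ZNF274KO 1 and 57.4% in ZNF274KO 2 (550 CpGs, rise of 48.1 points, adjusted p = 4.1e-07). ZNF732 went from 23.2% and 19.6% to 75.5% and 61.6% (363 CpGs, rise of 47.2 points, adjusted p = 3.4e-06). In both genes the groups did not overlap and ZNF274KO 1 was above ZNF274KO 2. Both ZNF274KO libraries were above both WT libraries in 14.6% of all 2 kb tiles of the genome, and the share over gene bodies is not given here.

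Nearer the telomere, ZNF718 went from 12.1% and 11.3% in WT to 52.3% and 35.8% in ZNF274KO (530 CpGs, rise of 32.3 points, adjusted p = 1.4e-05). The pseudogene ZNF876P went from 10.4% and 9.26% to 50.4% and 31.3% (259 CpGs, rise of 31.0 points, adjusted p = 7.6e-05). ZNF595, the gene closest to the telomere, went from 27.2% and 30.2% to 42.6% and 38.1% (353 CpGs, rise of 11.7 points, adjusted p = 0.0062). From 77.1% to 80.1% of its reads in each library lie in tiles covered at over 2 times the autosomal depth, up to position 68000, where the rise was 9.29 points. The rest of its body went from 15.3% and 15.6% to 41.1% and 32.8% (160 CpGs, 21.5 points, a split made after seeing the data and not tested). The groups did not overlap for any of the 3, for which the share over all gene bodies is not given here, and ZNF274KO 1 was above ZNF274KO 2 in each. Without ZNF274KO 1 the difference of ZNF595 was 9.45 points (adjusted p = 0.256), in a fit of 1 ZNF274KO library against 2 whose spread comes from WT alone.

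The other 3 did not pass the test. ZNF721, a KZFP gene with the most finger motifs of the cluster, had 82.1% and 81.6% in WT and 77.4% and 77.3% in ZNF274KO, a difference of -4.45 points (1011 CpGs, adjusted p = 0.157). ABCA11P, nearly all of whose CpGs are also counted in ZNF721, differed by -2.36 points (adjusted p = 0.718), and PIGG, measured over its whole span at chr4:492999-533989, most of it outside the cluster, by -1.64 points (adjusted p = 0.727). In each of the 3 the higher ZNF274KO library was still under the lower WT library. That order held in 20.3% of all 2 kb tiles of the genome, and its share over gene bodies is not given here. The levels of the 5 stretches between genes were 22.5 to 36.8 points higher in ZNF274KO, with no overlap between the groups. No test was run on them, and how often such stretches show no overlap elsewhere in the genome is not given here. The 15833 bases between ZNF876P and ZNF732 went from 9.62% ± 0.814 to 46.5% ± 11.8, and the 32339 bases between ZNF732 and ZNF141 from 32.3% ± 0.711 to 67.4% ± 6.77 (SD, n = 2 each). The 40566 bases between ZNF141 and ABCA11P, at the inner edge of the rise, went from 36.8% ± 1.39 to 60.7% ± 9.89.

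In the exons that encode the zinc fingers, methylation of WT cells was low in every gene but ZNF721. The ZNF595 exon at chr4:86102-87313, with 13 finger motifs and 12 CpGs, was at 0% in WT 1 (110 reads) and 2.94% in WT 2, and at 58.2% and 40.8% in the ZNF274KO libraries. The last exon of ZNF141, at chr4:366453-378657, holds 12 finger motifs and a long stretch past them, 106 CpGs in all, and went from 1.49% and 2.57% to 62.8% and 42.8%. The exons of ZNF718, ZNF876P and ZNF732 had 6 to 9 CpGs and rose from WT means of 10.5%, 0.65% and 4.28% to 45.9%, 33.1% and 43.1%. Both ZNF274KO libraries were above both WT libraries in each of these 5 exons, as in 14.6% of all 2 kb tiles of the genome. The share over exons is not given here, and no test was run on exons. The ZNF721 exon at chr4:433777-438221, with 24 finger motifs and 39 CpGs, was at 88.6% and 88.5% in WT and at 91.3% and 91.3% in ZNF274KO, although the body of the same gene was lower in ZNF274KO.

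At transcription starts the cluster held islands of 2 kinds. CpG islands at the starts of 4 KZFP genes were partly methylated in WT, at a mean of 53.9% for ZNF595, 53.3% for ZNF718, 58.2% for ZNF732 and 70.7% for ZNF141, and were higher in ZNF274KO by 6.48, 29.7, 27.0 and 17.9 points. For comparison, all CpGs of the telomere side together had a WT mean of 23.4%. The island at the start of ABCA11P was at 2.08% and 0.66% in WT and at 0.62% and 0.40% in ZNF274KO. The island shared by ZNF721 and PIGG, whose starts lie back to back, was at 5.69% and 9.79% in WT and 4.28% and 5.52% in ZNF274KO. The islands at starts on the densely methylated side were thus nearly free of methylation in all libraries, and those on the sparsely methylated side were not.

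The test was run on promoters, taken as 1 kb either side of the start. Of the 8, 3 were called higher in ZNF274KO (ZNF718, ZNF876P and ZNF732), where 0.192% of all 19748 promoters were. In edgeR 5 of the 8 had an unadjusted p under 0.05, with ABCA11P, which was lower, among them. The share of all promoters under that limit is not given here. The ZNF732 promoter went from 60.4% and 56.6% in WT to 85.7% and 81.2% in ZNF274KO (89 CpGs, adjusted p = 0.0243), and that of ZNF718 from 53.8% and 52.9% to 83.9% and 74.5% (83 CpGs, adjusted p = 0.0484), a call lost with a minimum of 10 reads (adjusted p = 0.0522) or none (adjusted p = 0.0572). The ZNF876P promoter, which has no island and 9 CpGs, went from 5.06% and 7.04% to 68.0% and 48.4% (adjusted p = 0.0055). The ZNF141 promoter had 65.6% and 70.9% in WT and 91.1% and 84.8% in ZNF274KO and missed the threshold (adjusted p = 0.0957), as did those of ZNF595 (difference of 6.12 points, adjusted p = 0.909), ABCA11P (-6.92 points, adjusted p = 0.759), ZNF721 (-3.57 points, adjusted p = 0.878) and PIGG (-3.29 points, adjusted p = 0.878). The promoters of ZNF721 and PIGG overlap almost entirely and are 1 measurement. The promoter calls were less firm than those of gene bodies: with 500 bases either side and with limma 0 were called, and without ZNF274KO 1 only ZNF876P was.

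**Figure D3:**
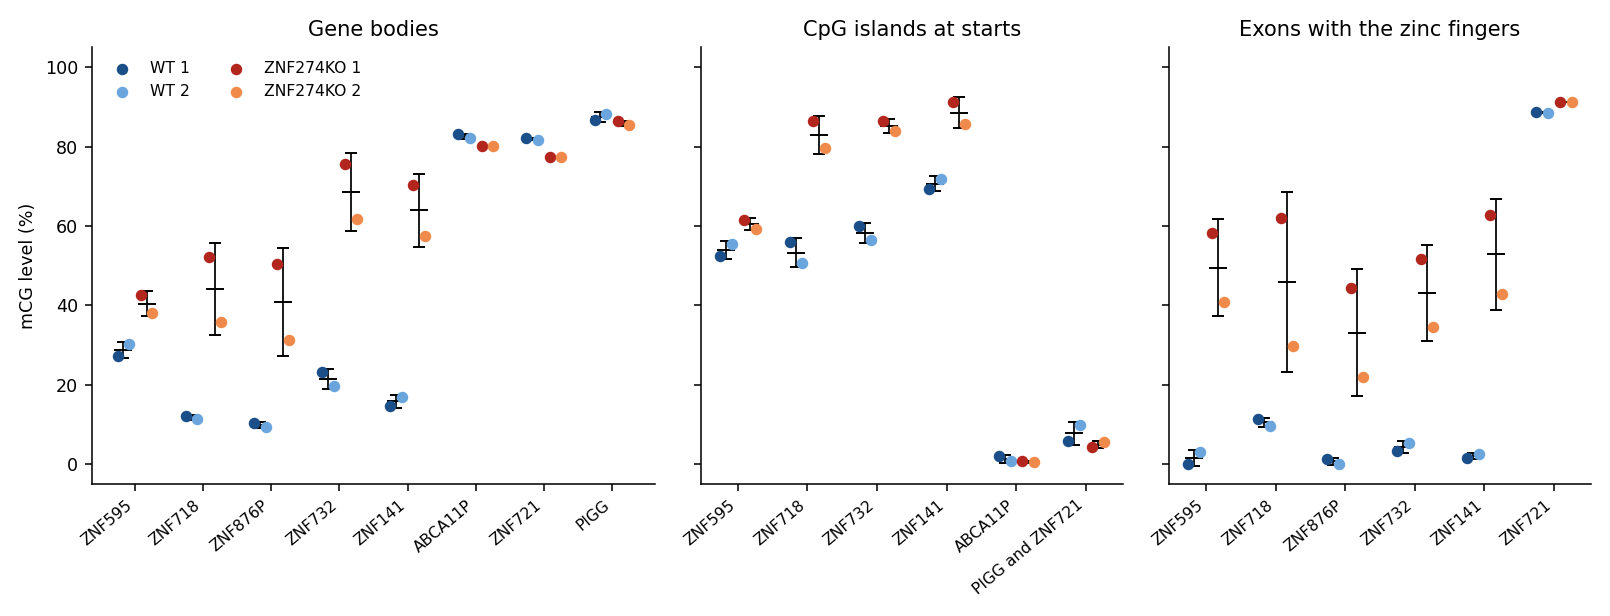
The mCG level (%) in each of the 4 libraries (dots) for gene bodies, for CpG islands at transcription starts and for the exons with the zinc fingers, with the mean and SD of the 2 libraries of each group (bars). Bodies and finger exons of ZNF595 to ZNF141 are higher in ZNF274KO, while ABCA11P, ZNF721 and PIGG are at 77.3% or more in the bodies and at 9.79% or less in the islands at their starts.

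Only 2 tiles were called lower, both within ZNF721. The tile at chr4:470001-472000 had 86.3% and 92.2% in WT and 71.4% and 72.7% in ZNF274KO (21 CpGs, -17.2 points, edgeR adjusted p = 0.0318). The tile at chr4:466001-468000, with the start of ABCA11P, had 7.79% and 5.71% in WT and 2.15% and 2.56% in ZNF274KO (63 CpGs, -4.39 points, adjusted p = 0.0126). Between them, the tile at chr4:468001-470000 differed by -15.7 points without passing (adjusted p = 0.191), and by -7.86 points on its single-copy CpGs alone (adjusted p = 0.885). In it a CpG island at chr4:468505-469031, with 29.2% of its 24 CpGs in single-copy sequence, was at 92.1% and 90.1% in WT and 71.0% and 72.6% in ZNF274KO. On single-copy CpGs alone the tile at chr4:470001-472000 differed by -16.7 points and lost its call (adjusted p = 0.184), and with limma both tiles lost theirs (adjusted p = 0.431 and 0.405). With 1 library left out, the lone library of its group is assumed to vary like the other group. In such fits the tile at chr4:470001-472000 lost its call, with differences of -14.2, -16.5 and -17.9 points without WT 2, ZNF274KO 1 and ZNF274KO 2. That at chr4:466001-468000 lost its call without WT 1 and without ZNF274KO 1, with differences of -3.35 and -4.19 points.

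The border between both sides was gradual. Moving inwards from chr4:412001-414000, the last tile called higher (56.0% and 51.4% in WT, 81.5% and 72.0% in ZNF274KO), the next 3 tiles had WT means of 76.8%, 63.7% and 74.6% and differences of 9.47, 14.3 and 9.33 points that did not pass the test. The last of these holds the 3′ ends of ABCA11P and ZNF721. From there to the start of ZNF721, 32 of 38 tiles had a WT mean above 80%.

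Single CpGs showed the same shift as an emptying of the lowest class. Among the 3847 CpGs that had 5 or more reads in all 4 libraries, 56.8% in WT 1 and 57.1% in WT 2 had a level of 20% or less, against 17.2% in ZNF274KO 1 and 27.1% in ZNF274KO 2. Levels between 20% and 80% were found at 16.9% and 16.7% of CpGs in WT and at 37.6% and 38.0% in ZNF274KO, and levels of 80% or more at 26.3% and 26.2% in WT and 45.2% and 34.9% in ZNF274KO. The median CpG was at 9.09% and 11.1% in WT and at 75% and 57.1% in ZNF274KO. The intermediate class was thus alike in the 2 ZNF274KO libraries, which differed at both ends.

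**Figure D4:**
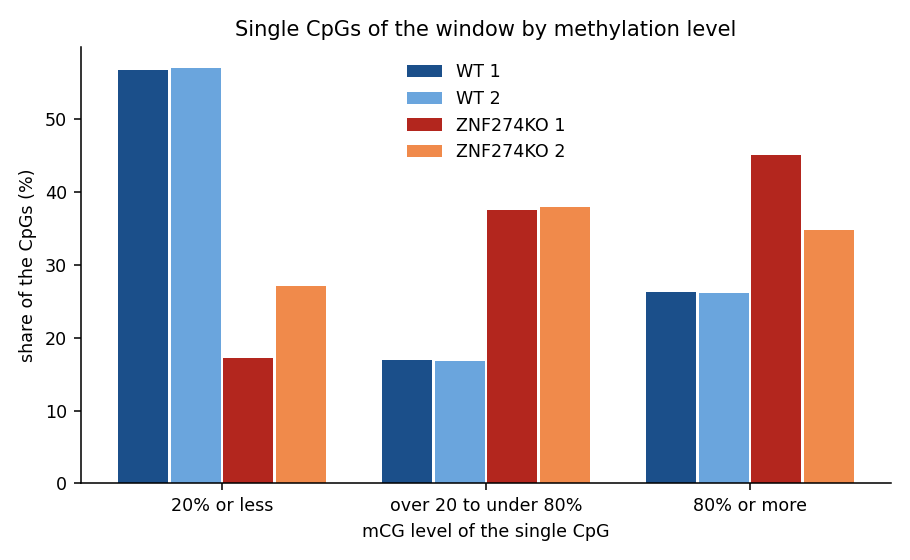
Share (%) of the 3847 CpGs that had 5 or more reads in all 4 libraries whose mCG level was 20% or less, between 20% and 80%, or 80% or more, with a bar for each of the 4 libraries. The low class holds 56.8% and 57.1% of CpGs in WT against 17.2% and 27.1% in ZNF274KO, and both higher classes are larger in ZNF274KO.

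By kind of sequence, levels were compared over the whole cluster first. The 1415 CpGs of islands went from 50.4% ± 0.753 to 62.2% ± 4.08, the 180 of finger exons from 21.9% ± 0.641 to 60.3% ± 10.2, the 2211 of the rest of gene bodies from 35.3% ± 1.08 to 58.6% ± 6.44, and the 1280 between genes from 16.7% ± 0.377 to 47.2% ± 9.47 (SD, n = 2 each). Over the whole cluster the groups did not overlap in any of these 4 kinds. Both ZNF274KO libraries were above both WT libraries in 14.6% of all 2 kb tiles of the genome, and the share over such kinds elsewhere is not given here. The value of the finger exons turned on the last exon of ZNF141, which is 12205 bases long and holds most of their CpGs: without it the other 74 CpGs, 39 of them in ZNF721, went from 51.7% ± 1.31 to 70.0% ± 5.86, a rise of 18.4 points in place of 38.3. The kinds also lie in different shares on each side of the cluster, and stretches between genes lie on the telomere side alone. On that side the rise was 17.0 points in islands (1079 CpGs), 48.1 in finger exons (141 CpGs; 40.1 over the 35 outside ZNF141), 35.1 in the rest of gene bodies (1436 CpGs) and 30.6 between genes. From ABCA11P and ZNF721 on, the differences were -3.76, 2.71 and -2.84 points in islands, finger exons and the rest of gene bodies, and the groups overlapped in islands. No test was run between kinds. CpGs were also split by whether the 50 bases around them, after conversion, occur once in the genome, as 65.7% did. Those with a second copy had copies on every chromosome, for example 995 CpGs elsewhere on chromosome 4 and 845 on chromosome 19. Only exact copies were counted, so the split cannot show whether similar but not identical genes exchanged reads. Single-copy CpGs went from 33.0% ± 0.554 to 54.2% ± 6.40 and the 1745 others from 38.0% ± 0.888 to 62.5% ± 7.26, so the rise was 21.2 points in the first and 24.5 points in the second.

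At the telomere end, the first 9 tiles, up to position 68000, were covered at 2.84 to 3.81 times the autosomal depth, in contrast to a median of 0.98 times over the other 216. Of these 9 tiles, 3 were called higher, with a median difference of 9.22 points, and of the other 216, 143, with a median of 30.6 points. They hold the start and the first part of ZNF595, and the part of the raised depth in these differences was not tested. In the next tile, at 1.96 times, the difference was 6.67 points, and over the rest of ZNF595, in tiles at 0.672 to 1.11 times, 29.3 points. The 10 kb on their telomere side, outside the cluster as defined, were also covered about 3-fold (2.87 to 3.32 times) and went from 4.94% and 6.04% in WT to 16.4% and 10.8% in ZNF274KO.

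Beyond the cluster, the next 450 kb of chromosome 4, chr4:500001-950000, were densely methylated in all libraries, at 76.6% ± 0.150 in WT and 78.2% ± 1.19 in ZNF274KO (adjusted p = 0.897 in edgeR). Of its 224 tiles 18 (8.04%) were called higher, against 0.432% over the genome, with a median rise of 21.4 points in those called. Of its 9 gene bodies 0 were called higher (2 at an unadjusted p under 0.05, for which the share over all gene bodies is not given here). The rise of the 4p16.3 cluster was 20.6 points larger than that of this stretch. It was 10.5 points larger than that of the KZFP cluster at 12q24.33, which went from 53.9% ± 0.126 to 65.7% ± 2.61. In that cluster 49 of 147 tiles and 2 of 7 KZFP gene bodies were called higher. Its depth over the autosomes was 1.22 and 1.10 in WT and 1.37 and 1.39 in ZNF274KO, and the part of depth in its values was not tested. There 5 tiles were called lower, where 0.0195% of all tiles of the genome were. Of its 7 KZFP promoters 2 were called lower (0.0608% of all promoters were) and 0 higher. In edgeR 4 of the 7 had an unadjusted p under 0.05, and the share of all promoters under that limit is not given here. The rise of 4p16.3 was 12.1 points smaller than that of 19p12, which went from 29.6% ± 0.723 to 63.9% ± 5.47 with 665 of 937 tiles called higher. In all 3 comparisons the values of the ZNF274KO libraries did not overlap those of the WT libraries, but the 2-sided exact permutation test over 4 libraries gave p = 0.333 each (adjusted p = 0.333 over the 3 comparisons), the smallest value that 2 against 2 libraries allow.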

How the data were processed

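The 4 EM-seq libraries of HEK293T cells, 2 WT and 2 ZNF274KO, took their groups and numbers from the labels. The authors mapped reads to hg19 with an rDNA sequence added, using Msuite2 2.2.0 and HISAT2, and deposited raw read counts of C and T per CpG, strand and library, neither pooled nor normalised. Filters on mapping quality and duplicate reads are not given in the sources used here, so counting intervals cover counting error only and duplicates would make them too narrow. The cluster and the gene lists were chosen with earlier results of these data known. KZFP genes were named by list, and a search for a KRAB pattern found it in ABCA11P but not in ZNF718.

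The mCG level was the share of reads with C among those with C or T, summed over strands and the CpGs of a region. The members were CpGs of chromosome 4 at 50001 to 500000 (no CpG lay at 50000). Reads were summed genome-wide over 2 kb tiles, bins of 450 kb starting so that 1 bin was the cluster, gene bodies and promoters (1000 bases either side of the start) of protein-coding genes of GENCODE release 44 on GRCh37 with ZNF876P and ABCA11P added. A region entered a fit with at least 20 reads and 5 covered CpGs per library. The fit was the quasi-likelihood model for methylation in edgeR 4.0.16 (R 4.3.3), on reads with C and reads with T, with a term for each library, a genotype effect on the log-odds and 1 dispersion for all regions of a kind. P-values were adjusted by Benjamini-Hochberg over the whole kind; called means an adjusted p under 0.05. Windows were compared by exact permutation over libraries. Reads were also simulated with the replicate spread of these libraries. On them the test recovered most of the tiles given the larger of the simulated differences, and the share of false calls was somewhat above the nominal rate. Recovery at the smaller difference is not given here. In a first simulation with a larger spread the test recovered none. Neither the sizes of these differences nor the share of false calls is given here. An adjusted p under 0.05 may thus understate the share of false calls among tiles. Recovery at the spread within the cluster, where ZNF274KO 1 was above ZNF274KO 2 in 140 of the 146 tiles called higher, was not tested.

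CpG islands were stretches of at least 200 bases with a GC content of 50% and an observed over expected CpG ratio of 0.6, finger exons those with the most C2H2 motifs of a gene. Single-copy CpGs were those whose surrounding 50 bases, once converted, have no second copy in the genome; this replaced a planned split by masked repeats, since the reference used here is not masked. The list of tiles to name held the 5 largest rises and 5 largest falls among tiles with at least 10 CpGs and those with a gene start. Not all tiles of that list are named in the text. Other tiles named, the islands and the printed stretches were chosen after their values were seen. Alternatives were other minimums of reads, tile and promoter sizes, the replicate number as a block, libraries centred on their genome-wide log-odds, limma 3.58.1 with log2((methylated + 1) / (unmethylated + 1)), repeated or very deep CpGs left out, an unweighted mean, and each library left out. Printed sequences were read with samtools 1.23.1 and aligned with Biopython 1.88.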

Additional observations from a re-analysis of the deposited data

How the results depend on the processing

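The rise of the whole 4p16.3 cluster kept its direction and its call in every fit run, from 17.5 to 27.0 points without 1 library. These fits take the spread of the lone library's group from the other group. Without 1 library, 108 to 151 tiles were called higher and 0 to 2 lower, 4 to 5 gene bodies and 1 to 4 promoters. The lowest counts were those without ZNF274KO replicate 1, where 38 of the 146 tiles lost their call. With limma, 46 tiles were called higher and 0 lower, and 2 gene bodies and 0 promoters. With 5 kb tiles, 61 of 90 tested were called higher and 0 lower, and with 1 kb tiles 207 of 344 were called higher, against 146 of 225 in the main fit. The genome-wide shares at these tile sizes are not given here. Without CpGs in repeated stretches, 129 tiles were called higher and 1 lower. With 500 bases either side, 0 promoters were called, and the difference of ABCA11P turned to 0.131 points (adjusted p = 1). Without the ZNF141 exon, left out after seeing the data, the rise in finger exons was 18.4 points. An unweighted mean of CpGs raised the difference in CpG islands to 15.1 points. For each of these the cause was not tested. Of the 75th percentile summaries of the 8 gene bodies, 5 rose, by 16.5 to 72.1 points, and those of ABCA11P, ZNF721 and PIGG were at 100% in both groups, where the measure can show no rise.

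By the excess over the neighbouring 450 kb, the rise was 16.7 to 24.5 points larger without 1 library, against 12q24.33 it was 7.56 to 13.3 points larger, and against 19p12 the difference was -13.1 to -11.1 points. By kind of sequence, the ranges without 1 library were 8.93 to 14.7 points in CpG islands, 31.1 to 45.6 in finger exons, 18.8 to 27.9 in the rest of gene bodies, 23.9 to 37.3 between genes, 16.7 to 25.7 in single-copy and 19.4 to 29.6 in repeated stretches. Leaving out the 9 tiles of raised depth, chosen after seeing the data, left 143 tiles called higher and a rise of 24.35 points.

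The labels do not say whether the replicate numbers pair the libraries. The differences between replicates 1 and 2 of WT and of ZNF274KO correlated at r = -0.07 over the tiles of the genome. Tiles had a median of 143 reads, and counting error lowers such a correlation, so this value cannot show whether libraries were paired. In the fit with a replicate block, 152 tiles were called higher and 2 lower, 5 gene bodies and 4 promoters, with ZNF141 added (adjusted p = 0.000773), and the adjusted p of the whole cluster was 5.75e-36. As pairing is not known and the block leaves fewer residual degrees of freedom, these smaller p-values are not read as stronger. With 2 libraries a group, the spread rests on few degrees of freedom, and at 8 to 10 reads per CpG single sites cannot be compared.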
